A study of Homo sapiens with 4 samples.

Results

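Interferon-stimulated genes were examined across the 4 arrays of a study of miR-410 in prostate cancer cells. The set holds 51 genes, chosen by name as genes that interferons are known to induce, and probe sets were named for 50 of them among 17687 named genes. STAT2, the remaining listed gene, is not named by the probe table and was not analysed here. The members were divided by role into 40 effectors, 6 measured signalling genes and 4 genes of antigen processing.

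Type I interferons bind a receptor at the cell surface and activate the kinases JAK1 and TYK2, which phosphorylate STAT proteins. A complex of STAT proteins with IRF9 then binds the interferon-stimulated response element (ISRE) in promoters and switches on genes whose products block viruses, while interferon gamma acts through JAK1 and JAK2 on the gamma-activated site (GAS). In tumor cells many of these genes are also expressed without infection, at levels that differ widely between lines.

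RNA of PC3 and C42B cells was hybridized to Clariom S arrays, with 1 array per cell line and stable construct. Both are human lines of prostate carcinoma, and C42B derives from LNCaP. All cells carried a CMV promoter plasmid with a GFP reporter, encoding either the miR-410 precursor or a scrambled control (miR-CON), and were selected in puromycin. Whether each was a pool or 1 clone is not given in the sources used here, and the groups had no replicate arrays.

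The labels conflict with each other and with the data, so each array is named here by its title. In the pair titled PC3, the genotype and description fields name the opposite construct from the title. Over all genes, log2 differences (titled miR-410 minus titled miR-CON) ran from -4.63 to 6.47 in the pair titled PC3. In the pair titled C42B they ran from -5.15 to 2.94. In size these extremes match the largest fold changes the paper lists for C42B and for PC3 respectively, with the signs turned. A title is thus a name here and does not settle the line or construct of an array. Line markers also stood against the titles. All 8 measured markers of PC3 cells were higher on the arrays titled C42B, and 6 of 8 measured LNCaP-lineage markers were lower there (adjusted p under 0.05 in limma, a linear model fitted to all genes). The mean level of 5 leukocyte markers lay between 4.85 and 5.34 and that of 4 fibroblast markers between 4.64 and 5.19 on the arrays. PTPRC, the pan-leukocyte antigen CD45, had values between 3.39 and 4.35, and CD68 was higher on the arrays titled C42B by 1.80 (log2, adjusted p = 0.0045). Of 4 fibroblast markers 0 passed the limma test (1 at an unadjusted p under 0.05). The part of other cells in the results was not tested. In RNA of a whole culture, fewer cells expressing a gene and less RNA per cell cannot be told apart.

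The miRNA of the construct is shown because it sets the study's contrast. Its mature 3p form lies at chr14:101065961-101065981 on the plus strand of GRCh38.p14 (RefSeq), with the seed, bases 2 to 8, in capitals.
hsa-miR-410-3p: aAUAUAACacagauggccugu

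Promoter stretches are shown for members picked by hand among those with an ISRE match, because the ISRE is the element that defines most of this gene set. Members without a match were not printed, whatever their difference. RefSeq windows from 250 bases before to 50 after the start (GRCh38.p14) were found for 41 members and searched for an ISRE core, GAAANNGAAA or its reverse complement TTTCNNTTTC, and for the GAS core TTCNNNGAA, which is its own reverse complement. Each stretch below is read 5′ to 3′ on the gene's strand, ends before the start, and has the ISRE cores in capitals. They lie at chr1:78620272-78620396 (plus strand) for IFI44L, chr10:89392495-89392541 (plus) for IFIT1, chr15:88638935-88638968 (plus) for ISG20, chr7:93118094-93118127 (minus) for SAMD9, chr1:27672264-27672360 (minus) for IFI6, chr7:140062952-140062973 (minus) for PARP12 and chr19:17405733-17405772 (minus) for BST2.
IFI44L: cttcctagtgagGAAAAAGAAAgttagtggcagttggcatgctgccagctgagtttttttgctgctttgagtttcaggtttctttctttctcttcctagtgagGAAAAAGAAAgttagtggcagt
IFIT1: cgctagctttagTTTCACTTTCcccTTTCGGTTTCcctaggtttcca
ISG20: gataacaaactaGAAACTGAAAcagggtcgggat
SAMD9: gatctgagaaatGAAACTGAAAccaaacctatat
IFI6: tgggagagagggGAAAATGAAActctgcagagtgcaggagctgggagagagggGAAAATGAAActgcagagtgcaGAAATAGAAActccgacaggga
PARP12: gcccggggccgcTTTCGGTTTC
BST2: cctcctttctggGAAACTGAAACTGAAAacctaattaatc

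The ISRE core was present in the windows of 28 of the 41 members (68.3%) and of 4.38% of 27305 genes with a window. The GAS core was present in 14 members (34.1%) and in 9.38% of all genes, and 6 of its 16 matches in member windows overlapped an ISRE match. The 2 matches of IFI44L lie in exact copies of at least 34 bases, and 2 of the 3 matches of IFI6 in copies of at least 24 bases. Copies were sought only inside the printed stretches, and they reach the edges of these, so their full lengths were not determined. The 2 cores of BST2 overlap and share 4 bases. No core was found in the window of IFI16, SAMD9L or UBE2L6.

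Of 40 effectors, 19 were called higher on the arrays titled C42B than on those titled PC3, 1 was called lower and 20 did not pass the test. Of all 50 members, 22 were called higher in limma, against 11.7% of all genes, and 3 were called lower, against 14.1%. The members were chosen with earlier results of these data known, so these shares are descriptions and not an independent test. The median log2 difference (arrays titled C42B minus arrays titled PC3) was 0.68 over the members and -0.03 over all genes. Among the called members, 10 were at least 4-fold higher in RMA value, and the share of all genes past that cut was not counted. Of these members, IFI44L, OAS2, SAMD9L and GBP1 lay below the 25th percentile of all genes on both arrays titled PC3. The comparison sets 2 arrays against 2, and the arrays of a line carry different constructs, so p-values measure the difference between lines against a spread that holds the construct difference. With the construct as a second term, by title or by the genotype field, 20 or 19 members were called higher and 3 lower. The share of all genes called with this term was not counted. With it, IFITM2, ISG15 and PARP14 missed the threshold under either label and IRF1 under the title (adjusted p between 0.0511 and 0.0619). The counts depend on single arrays. Without the array titled PC3 miR-410, 13 members were called higher, and without the array titled PC3 miR-CON, 1 was called lower. With an ordinary ANOVA per gene in place of limma, 0 members and 1 gene of all were called. In that ANOVA 17 members had an unadjusted p under 0.05, and the share of all genes was not counted.

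**Figure D1:**
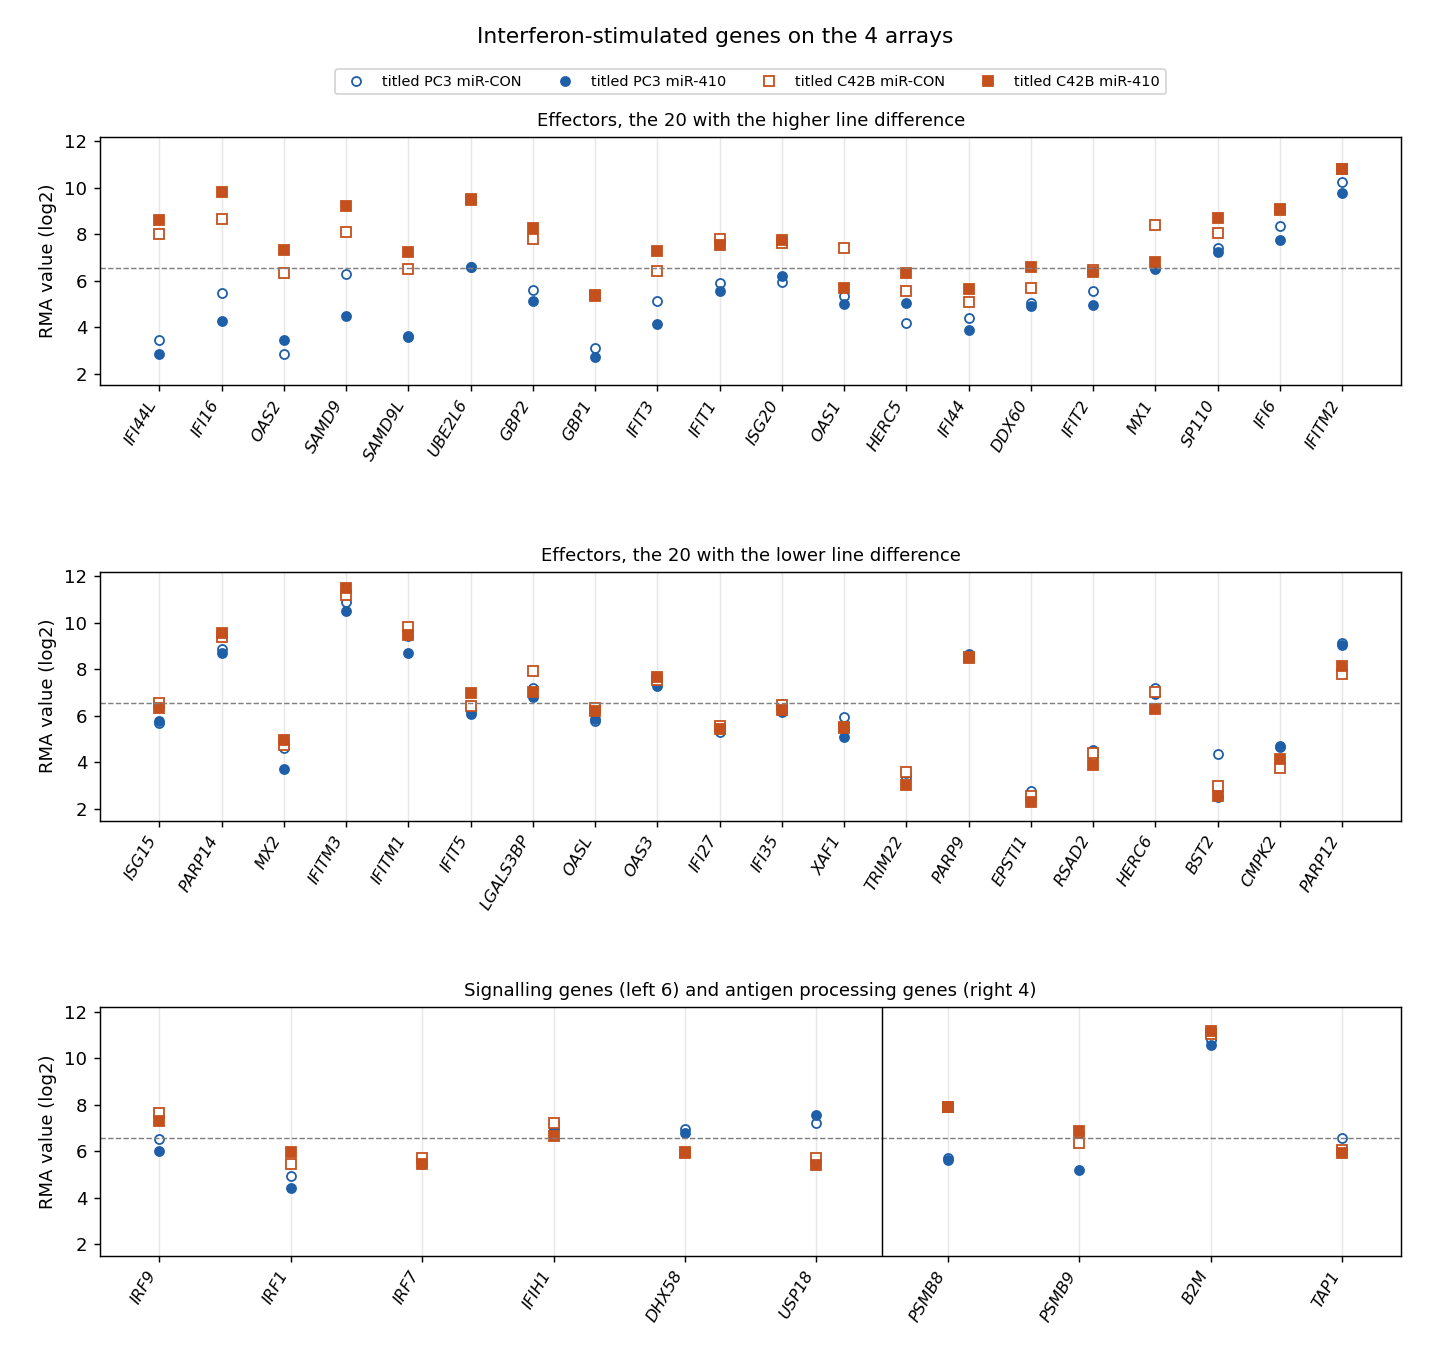
RMA values (log2, vertical axis) of the 50 measured members on the 4 arrays, with circles for arrays titled PC3, squares for arrays titled C42B, open symbols for miR-CON and filled symbols for miR-410. The dashed line is the median of all genes, and IFI44L shows the widest gap, with 3.44 and 2.83 on the arrays titled PC3 and 8.01 and 8.61 on those titled C42B.

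IFI44L, an interferon-induced gene of the IFI44 family, had the largest line difference of the members. Its values (log2, as for all levels that follow) were 3.44 on the control and 2.83 on the miR-410 array titled PC3, and 8.01 on the control and 8.61 on the miR-410 array titled C42B. The RMA values were higher by 5.18 on the arrays titled C42B (95% interval 4.43 to 5.92, limma adjusted p = 0.00032). On the arrays titled PC3 this gene lay at percentiles 10.9 and 4.50 of all genes. Signal over background was not examined, so no fold of RNA is given where both arrays of a line lay below the 25th percentile. Differences of RMA values are given there. Folds printed below for IFI16, SAMD9, IFIT3, IRF1, HERC5, TLR3 and ERAP2 include an array below that percentile, so they also rest on a dim value. IFI16, which encodes a nuclear sensor of DNA, gave 5.48, 4.28, 8.64 and 9.80, the arrays being listed in that order from here on. The 20.3-fold difference (adjusted p = 0.0037) exceeded the spread within each line, although the arrays of each line differed by more than 2-fold for this gene.

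OAS2, an oligoadenylate synthetase gene whose product activates RNase L, had values of 2.84, 3.43, 6.34 and 7.30, a log2 difference of 3.69 (adjusted p = 0.0020), with the arrays titled PC3 at percentiles 4.56 and 10.8. SAMD9 and SAMD9L, which encode related proteins that restrict poxviruses, were higher by 3.28 (95% interval 1.65 to 4.91, adjusted p = 0.0183) and 3.27 (2.60 to 3.93, adjusted p = 0.00096) on the log2 scale. SAMD9 had values of 6.28, 4.47, 8.10 and 9.22, and SAMD9L had values of 3.61, 3.58, 6.50 and 7.22. The interval of SAMD9 was the wider because its 2 arrays of each line lay further apart. For both genes the arrays of the 2 lines did not overlap, as was so for 11413 of 17687 genes.

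The guanylate-binding GTPase genes followed. GBP1 had values of 3.09, 2.72, 5.39 and 5.32 (higher by 2.45 on the log2 scale, adjusted p = 0.00088), with the arrays titled PC3 at percentiles 7.04 and 3.35. GBP2 had values of 5.59, 5.13, 7.80 and 8.25 (6.35-fold higher, adjusted p = 0.0016). These GTPases are known to attack the vacuoles of intracellular pathogens. Of the related MX genes, which encode dynamin-like antiviral GTPases, neither was called (MX1 adjusted p = 0.188, MX2 adjusted p = 0.191).

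IFIT genes encode tetratricopeptide proteins that bind foreign RNA, and 3 of 4 were called higher, against 11.7% of all genes. IFIT1 had values of 5.90, 5.54, 7.78 and 7.54, a 3.84-fold difference (adjusted p = 0.0023). IFIT3, the partner that stabilizes IFIT1, had values of 5.12, 4.15, 6.42 and 7.26, a 4.62-fold difference (adjusted p = 0.0151). IFIT2 was 2.23-fold higher (adjusted p = 0.0233). IFIT5 differed by 0.55 (95% interval -0.02 to 1.12, adjusted p = 0.144), so its difference was not past the threshold.

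Genes of ISG15 conjugation differed unequally. ISG15 encodes a ubiquitin-like modifier, and UBE2L6 encodes the enzyme that carries it to ligases. UBE2L6 had values of 6.58, 6.59, 9.51 and 9.47, a 7.47-fold difference with almost no spread within a line (adjusted p = 0.00027). ISG15 itself was 1.64-fold higher (adjusted p = 0.0324, 0.0511 with the construct by title and 0.0526 with the construct by genotype field as a second term). HERC5, the main ISG15 ligase gene in human cells, lay just outside the threshold with a 2.52-fold difference (adjusted p = 0.0501, and 0.0076 and 0.0563 with those terms), and its relative HERC6 had a log2 difference of -0.39 (adjusted p = 0.386).

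Of the other effectors, ISG20, which encodes an RNA exonuclease, had values of 5.93, 6.19, 7.63 and 7.75 (3.09-fold higher, adjusted p = 0.0027). IFI6, SP110 and DDX60 were called higher by 2.05-fold to 2.23-fold, and IFI44, below the 25th percentile on both arrays titled PC3, by 1.22 on the log2 scale. PARP14 and IFITM2 were 1.61-fold and 1.71-fold higher in the fit without a construct term. IFI6, which encodes a mitochondrial and endoplasmic reticulum protein, had values of 8.33, 7.74, 9.04 and 9.10, and PARP14 had 8.88, 8.69, 9.38 and 9.56. OAS3 overlapped between the lines, with 7.66, 7.30, 7.53 and 7.66. IFITM2 and IFITM3, which encode proteins that block viral entry at endosomal membranes, are near-identical in sequence, so their probe sets may share signal. IFITM3 had values of 10.89, 10.52, 11.19 and 11.48, a log2 difference of 0.63 (adjusted p = 0.083). IFITM1, OAS1, OAS3, OASL, BST2, RSAD2, CMPK2, PARP9, IFI27, IFI35, EPSTI1, XAF1, TRIM22 and LGALS3BP did not pass the test, with log2 differences from -0.71 (CMPK2) to 1.39 (OAS1).

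PARP12 was the effector called lower. This gene encodes a mono-ADP-ribosyltransferase with antiviral activity. Its values were 9.14, 9.06, 7.80 and 8.13, a 2.20-fold lower level on the arrays titled C42B (adjusted p = 0.0101). Its neighbours by name, PARP9 and PARP14, differed by -0.15 (adjusted p = 0.562) and 0.69 (adjusted p = 0.0389) on the log2 scale. BST2, RSAD2, EPSTI1 and TRIM22 lay below the 25th percentile of all genes on every array, so their differences rest on dim probe sets.

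**Figure D2:**
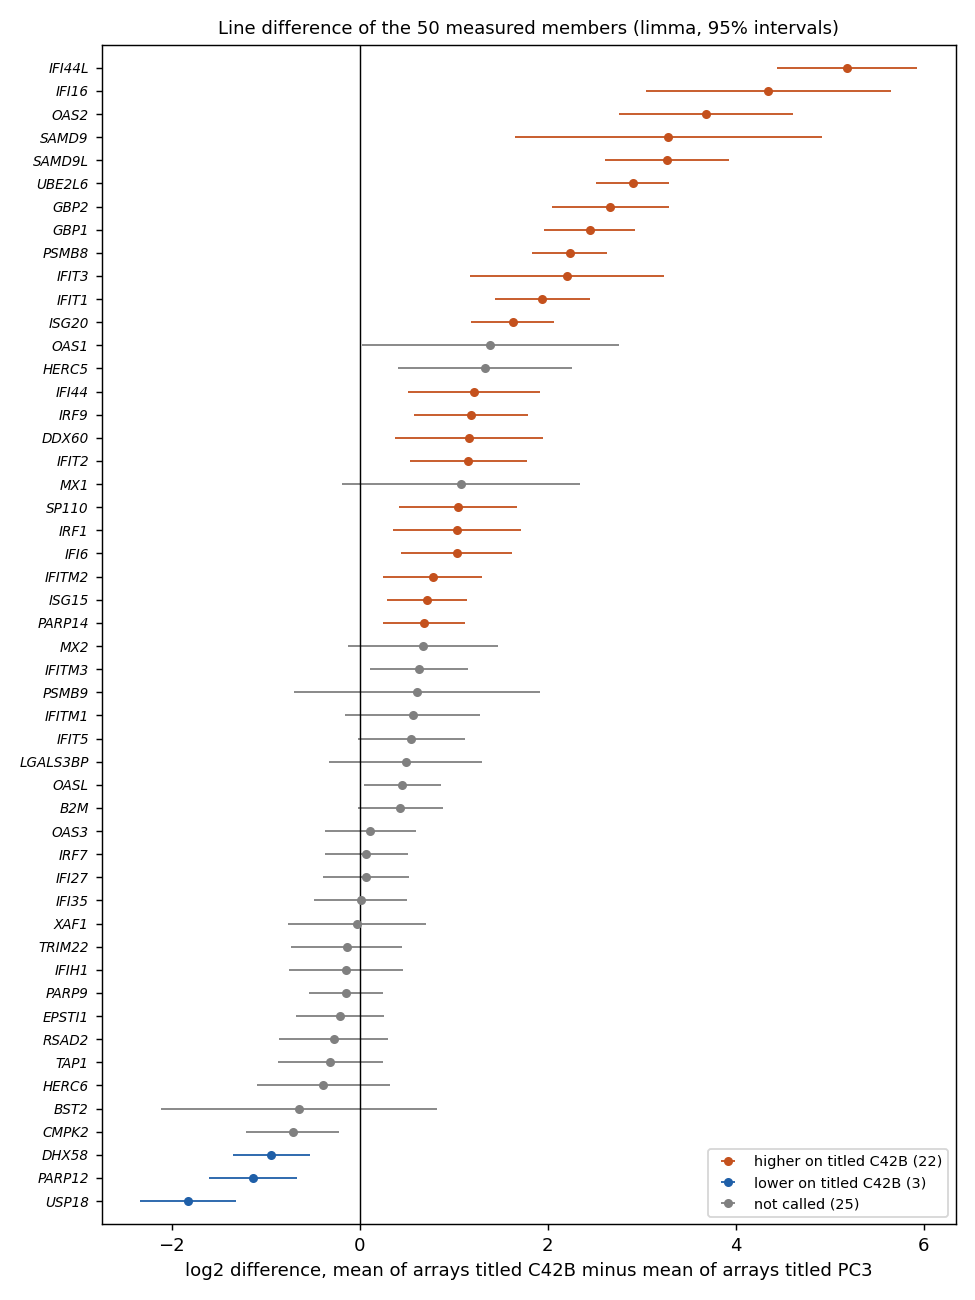
Log2 difference of each of the 50 members between the mean of the arrays titled C42B and the mean of the arrays titled PC3 (horizontal axis), with the 95% interval of the limma fit. Orange marks 22 members called higher, blue 3 called lower and grey 25 not called, and IFI44L is highest at 5.18 and USP18 lowest at -1.82.

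Signalling members went in both directions. Of 6 measured, 2 were called higher and 2 were called lower with the title C42B, against 11.7% and 14.1% of all genes. Their median log2 difference was -0.04. USP18, which encodes a protease that removes ISG15 and blocks signalling at the interferon receptor, had values of 7.23, 7.54, 5.71 and 5.41. It was the member with the largest difference downward (3.54-fold lower, adjusted p = 0.0029). DHX58, which encodes the RNA helicase LGP2, had values of 6.94, 6.80, 5.90 and 5.97 (1.92-fold lower, adjusted p = 0.0120).

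The transcription factor genes IRF9 and IRF1 were called higher. IRF9, the DNA-binding part of the complex at the ISRE, had values of 6.54, 6.02, 7.64 and 7.30 (2.28-fold higher, adjusted p = 0.0198). IRF1, which is induced through the GAS, had values of 4.92, 4.40, 5.43 and 5.96 (2.05-fold higher, adjusted p = 0.0420, 0.0607 with the construct by title as a second term). IRF7, which amplifies interferon production, differed by 0.07 (95% interval -0.37 to 0.51). IFIH1, which encodes the RNA sensor MDA5, had values of 7.19, 6.95, 7.22 and 6.64 and differed by -0.14 (-0.75 to 0.46).

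Antigen processing was represented by 1 called member of 4, a higher one, while 11.7% of all genes were called higher. PSMB8, a catalytic subunit gene of the immunoproteasome, had values of 5.73, 5.62, 7.91 and 7.89. The 4.70-fold difference (adjusted p = 0.00064) was far larger than the spread within either line. B2M, the light chain of MHC class I, had values of 10.80, 10.55, 11.03 and 11.19 (log2 difference 0.43, adjusted p = 0.144). The log2 differences of PSMB9, another immunoproteasome subunit gene, and of the peptide transporter gene TAP1 were 0.61 (adjusted p = 0.463) and -0.31 (adjusted p = 0.378).

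Genes upstream of the members differed most in 2 transducers. JAK1 had values of 6.19, 6.45, 9.89 and 10.10, a 12.8-fold higher level on the arrays titled C42B (adjusted p = 0.00023). STAT3 had values of 8.71, 8.42, 4.35 and 4.19, a log2 difference of -4.29 (adjusted p = 0.00015), with both arrays titled C42B below the 25th percentile. LNCaP cells are known for silenced JAK1, and PC3 cells for a deletion of STAT3. The low arrays for each gene are thus those titled with the other line. Of 10 measured genes of receptors and their kinases, 3 were called higher and 1 was called lower, against 11.7% and 14.1% of all genes. Besides JAK1 and STAT3, the receptor chain genes IL10RB (2.53-fold higher, adjusted p = 0.0039) and IFNGR2 (2.21-fold higher, adjusted p = 0.0151) were called. TYK2 and JAK2 differed by 0.40 (adjusted p = 0.18) and 0.23 (adjusted p = 0.61).

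Of 12 genes of nucleic acid sensors, adaptors and kinases, 3 were called higher and 2 lower, against 11.7% and 14.1% of all genes. CGAS, the cytosolic DNA sensor gene, had values of 4.18, 2.95, 6.91 and 7.56 (higher by 3.67 on the log2 scale, adjusted p = 0.0037), with the arrays titled PC3 at percentiles 19.4 and 5.71. STING1, its adaptor gene, had values of 6.55, 5.95, 8.62 and 7.94 (4.08-fold higher, adjusted p = 0.0081). IKBKE, a kinase gene upstream of IRF3, was 1.90-fold higher (adjusted p = 0.0195). TLR3, a receptor gene for double-stranded RNA, and TBK1, a kinase gene, were 2.66-fold (adjusted p = 0.0328) and 2.19-fold lower (adjusted p = 0.0320).

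Of 14 interferon ligand genes 0 were called by limma (1 at an unadjusted p under 0.05), and 10 of them lay below the 25th percentile of all genes on every array. IFNB1, which encodes interferon beta, had the highest line difference of the list (0.75, adjusted p = 0.063), with values of 3.31, 3.86, 4.32 and 4.35. Among 7 inhibitor genes, PTPN6, which encodes the phosphatase SHP-1, was called lower (2.71-fold, adjusted p = 0.0067). Of 14 further genes of antigen presentation, 3 were called higher, namely HLA-E (2.38-fold, adjusted p = 0.0187) and the peptide-trimming genes ERAP1 (2.71-fold, adjusted p = 0.0048) and ERAP2 (7.55-fold, adjusted p = 0.0019). Over all genes, 11.7% were called higher and 14.1% lower.

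**Figure D3:**
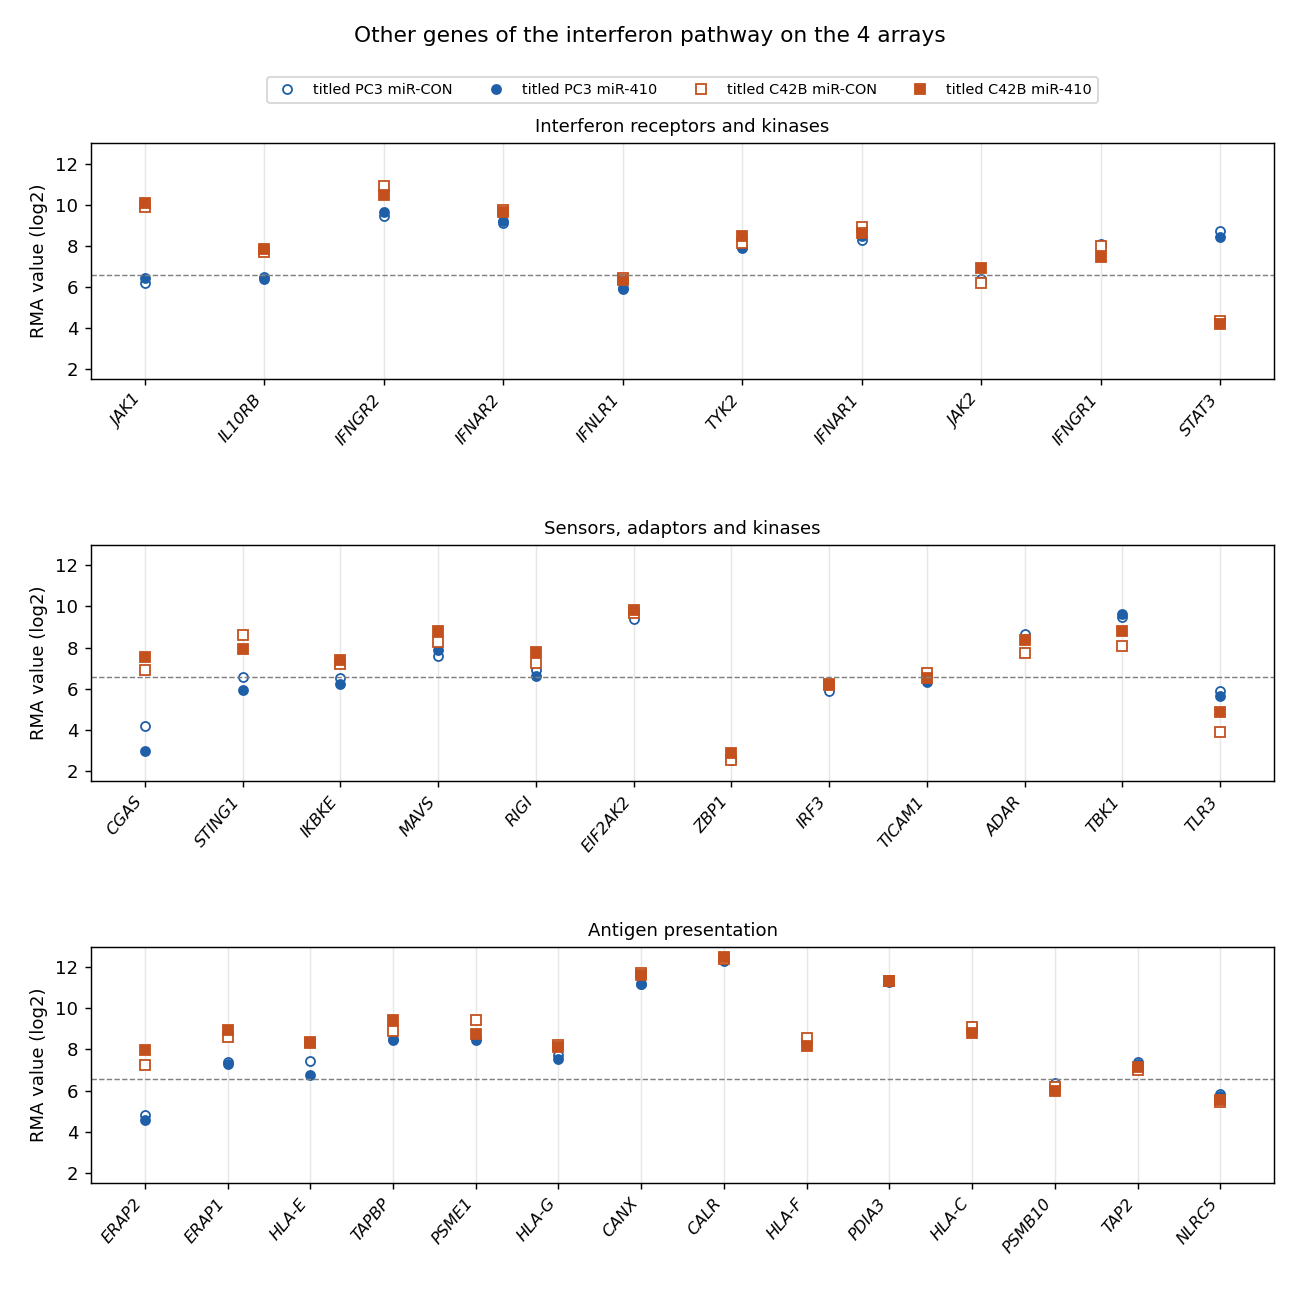
RMA values (log2, vertical axis) of interferon pathway genes outside the member set on the 4 arrays, with symbols as in the plot of member levels and a dashed line at the median of all genes. JAK1 lies near 6.19 and 6.45 on the arrays titled PC3 and near 9.89 and 10.10 on those titled C42B, and STAT3 shows the opposite order.

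Within the pair titled PC3, members were mostly lower on the array titled miR-410 than on the array titled miR-CON. At least 2-fold lower were 4 of 50 members, against 0.656% of all genes, and 0 of 50 were at least 2-fold higher, against 0.441%. The median log2 difference (titled miR-410 minus titled miR-CON) was -0.26 over the members and -0.01 over all genes. Below 0 were 36 of 50 members and 9035 of 17687 genes. With 1 array per construct there is no error and no test, and by the genotype field of these arrays every sign is turned.

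BST2, which encodes tetherin, a protein that holds budding virions at the cell surface, had an RMA value of 4.34 on the array titled miR-CON and 2.50 on that titled miR-410, at percentiles 21.6 and 1.48 of all genes, a log2 difference of -1.85 between dim values. SAMD9 went from 6.28 to 4.47 (3.50-fold lower). PSMB9 went from 6.80 to 5.19 (3.04-fold lower), and had 6.36 and 6.85 on the arrays titled C42B. IFI16 went from 5.48 to 4.28 (2.29-fold lower). Once genes under the array median on both arrays were left out, PSMB9 remained as the single member past 2-fold, since BST2, SAMD9 and IFI16 were dim on both arrays of this pair.

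Members just inside and outside the cutoff were close in value, with IFI16 at -1.20, IFIT3 at -0.97, MX2 at -0.91 and XAF1 at -0.84. The highest was HERC5 at 0.84, followed by OAS2 at 0.59 and USP18 at 0.31. By role, all 4 IFIT genes were below 0 (median -0.50), as were all 4 membrane restriction genes (IFITM1, IFITM2, IFITM3 and BST2, median -0.61) and all 4 antigen processing genes (median -0.39). Of the OAS and nuclease genes 2 of 5 and of the ISG15 conjugation genes 1 of 4 were below 0. Over all genes, 9035 of 17687 were below 0 in this pair. Outside the members, CGAS, also dim on both arrays, differed by -1.23 on the log2 scale, the only pathway gene past 2-fold in either pair.

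Within the pair titled C42B, members did not share a direction. On the array titled miR-410, 2 of 50 were at least 2-fold higher, against 1.35% of all genes, and 2 of 50 were at least 2-fold lower, against 2.26%. The median log2 difference was 0.01 over the members and 0.01 over all genes, and 25 members were above and 25 below 0. The median of the absolute differences was 0.34 for the members and 0.25 for all genes.

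OAS1 and MX1 were the members past 2-fold downward. OAS1, which like OAS2 makes the activator of RNase L, went from 7.41 on the array titled C42B miR-CON to 5.69 on that titled C42B miR-410 (3.30-fold lower). MX1 went from 8.41 to 6.80 (3.06-fold lower). On the arrays titled PC3 these genes differed little, with MX1 at 6.52 and 6.53 and OAS1 lower by 1.25-fold on the array titled miR-410. For both genes the array titled C42B miR-CON was the highest of the 4, and the line difference did not pass the test (1.08, 95% interval -0.19 to 2.34, for MX1 and 1.39, 0.03 to 2.75, for OAS1).

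IFI16 and SAMD9 were the members past 2-fold upward. IFI16 went from 8.64 to 9.80 (2.24-fold higher) and SAMD9 from 8.10 to 9.22 (2.17-fold higher). Next were OAS2 at 0.96, DDX60 at 0.91, IFIT3 at 0.84, HERC5 at 0.75 and SAMD9L at 0.71, all under the cutoff. LGALS3BP at -0.87 and HERC6 at -0.74 were the lowest under the cutoff. No signalling or antigen processing member passed 2-fold here, and their differences ran from -0.57 (IFIH1) to 0.53 (IRF1) for signalling and from -0.10 (TAP1) to 0.50 (PSMB9) for antigen processing.

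Between the pairs, which share no array, 31 of 50 members had opposite signs by title and 19 the same sign, while 8312 of 17687 genes had opposite signs and 9375 the same. This was not tested. IFI16 and SAMD9 passed 2-fold in both pairs, in opposite directions. If the genotype field of the arrays titled PC3 is used in place of the title, both genes are higher on the array labelled miR-410 in both pairs. If both pairs are turned, as the signs of the paper's largest changes run, both genes again go in opposite directions. HERC5 and OAS2 were higher on the array titled miR-410 in both pairs, by 0.84 and 0.75 for HERC5 and by 0.59 and 0.96 for OAS2.

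**Figure D4:**
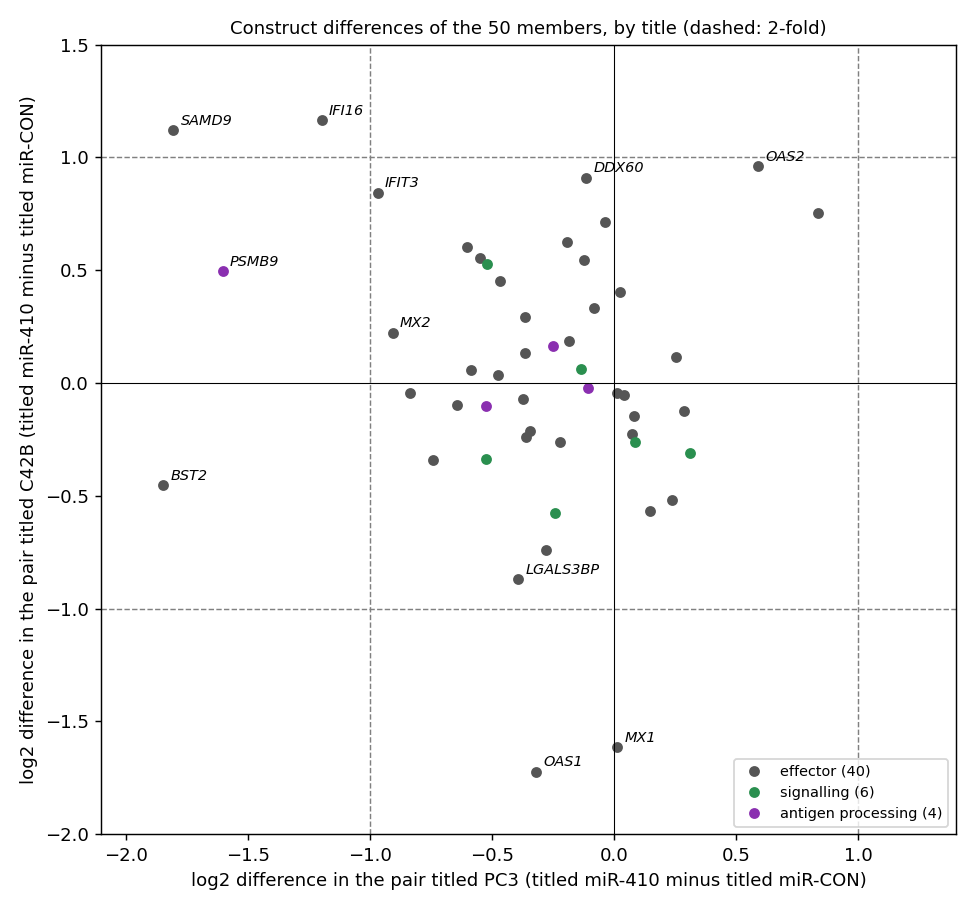
Log2 difference of each of the 50 members, titled miR-410 minus titled miR-CON, in the pair titled PC3 (horizontal axis) and in the pair titled C42B (vertical axis), coloured by role, with dashed lines at 2-fold. SAMD9 and IFI16 lie past 2-fold on both axes in opposite directions, BST2 and PSMB9 on the horizontal axis alone, and OAS1 and MX1 on the vertical axis alone.

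Many of these genes lie in clusters, and neighbours did not always differ alike. SAMD9 and SAMD9L lie side by side on chromosome 7 and had near-equal line differences, but in the pair titled PC3 they differed by -1.81 and -0.04. MX1 and MX2 lie side by side on chromosome 21, and in the pair titled C42B they differed by -1.61 and 0.22. OAS1 and OAS2, with OAS3 between them on chromosome 12, differed by -1.72 and 0.96 in that pair and OAS3 by 0.13.

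On chromosome 6, TAP1 lies between PSMB8 and PSMB9. PSMB9 and TAP1 were both lower on the array titled PC3 miR-410 (-1.60 and -0.52), and PSMB8 differed by -0.11. IFI44 and IFI44L on chromosome 1 moved by like amounts within each pair, by -0.55 and -0.60 in the pair titled PC3 and by 0.56 and 0.60 in the pair titled C42B. Their line differences were 1.22 (adjusted p = 0.0289) and 5.18. HERC5 and HERC6 on chromosome 4 had opposite signs in both pairs.

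**Figure D5:**
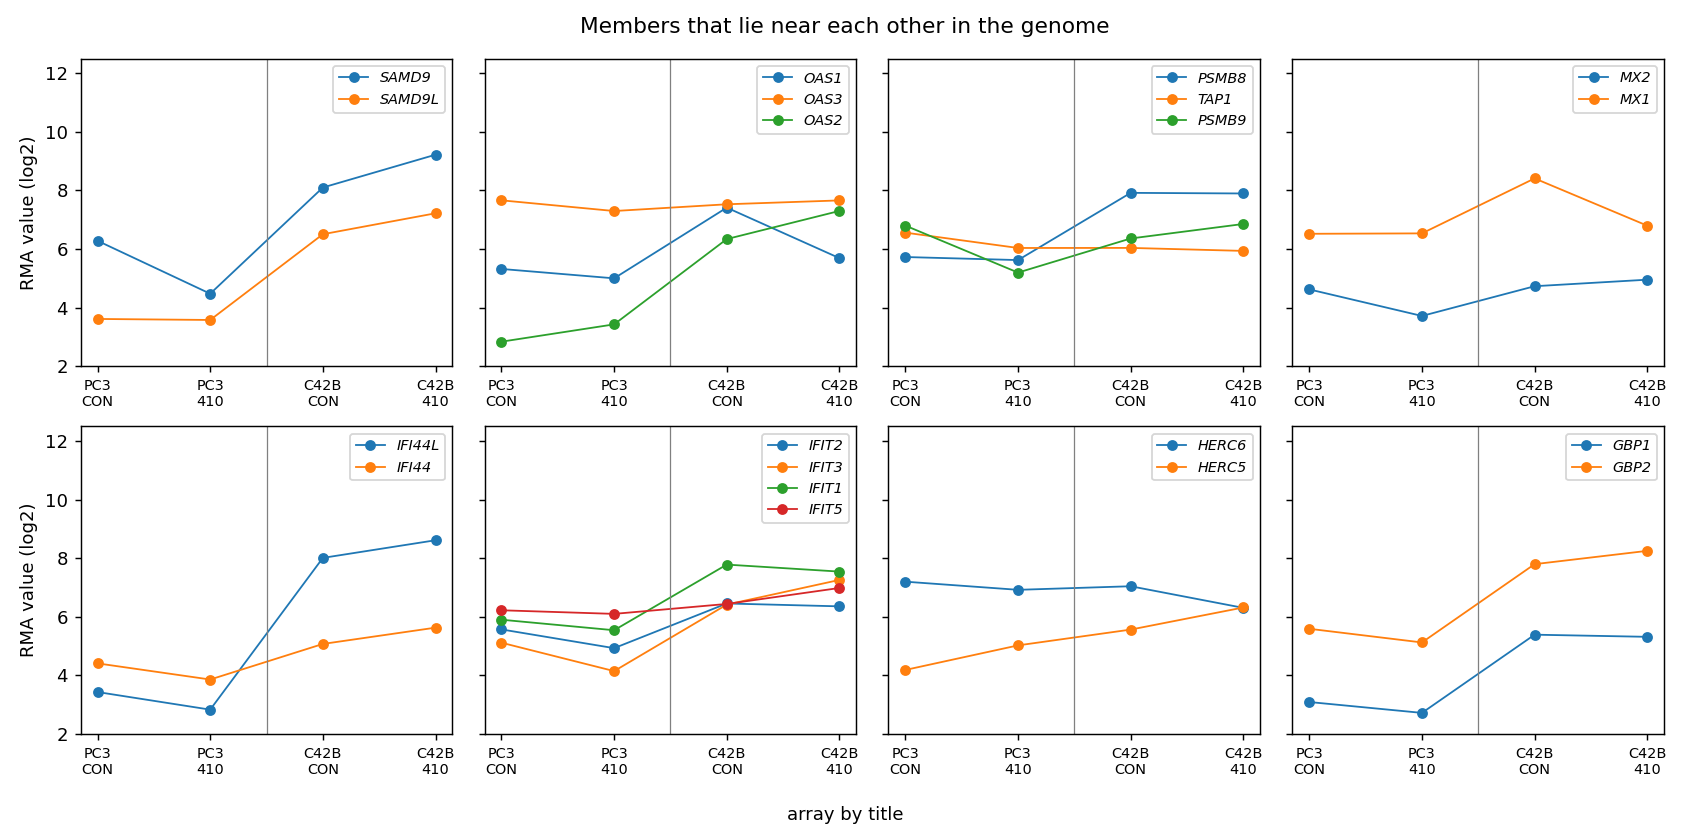
RMA values (log2, vertical axis) of members that lie near each other in the genome, on each of the 4 arrays (horizontal axis), 1 panel per cluster and 1 coloured line per gene. SAMD9 drops from 6.28 to 4.47 in the pair titled PC3 while SAMD9L stays at 3.61 and 3.58, and OAS1 drops from 7.41 to 5.69 in the pair titled C42B while OAS2 goes from 6.34 to 7.30.

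Members with and without an ISRE core in the window were both found among those higher on the arrays titled C42B. Of 28 measured members with a core in the window, 12 were called higher and 1 lower (median log2 difference 0.66), and of 12 without, 6 were called higher and 0 lower by limma (median 1.04). Over all genes, 11.7% were called higher and 14.1% lower. IFI44L, IFIT1, ISG20, SAMD9 and IFI6, whose stretches are printed above, were called higher, PARP12 was called lower, and BST2 was not called. In the pair titled PC3 the medians were -0.25 with a core and -0.33 without, and in the pair titled C42B 0.02 and 0.18. These are descriptions of the windows searched, and elements elsewhere were not examined.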

How the data were processed

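Expression was measured on 4 Clariom S arrays. The authors applied RMA in Partek, both named in the submitters' processing notes, and the deposited log2 values cover 21448 probe sets. The genome build of the probe sets is not given in the sources used here. Precision is limited by how few arrays there are, and signal over background was not examined.

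Groups follow sample titles. Probe sets with 1 symbol in the platform table (17709, with 3739 not listed) were averaged per gene, which concerned 20 genes, and gave 17687 genes. Lines (2 arrays each) were compared with limma 3.58.1 in R 4.3.3, without a construct term, with Benjamini-Hochberg adjustment over all genes at 0.05. Pairs (1 array per construct) were compared as log2 differences, counted at 2-fold. The limma script was tested on simulated data. Python 3.11.15, pandas 2.3.3 and statsmodels 0.14.6 were used.

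The members and lists were chosen with earlier results of these data known. Values are given for members past 2-fold in a pair, for up to 8 called members with the largest line difference in each direction, and for the brightest of each role. Pathway genes are named where limma called them, and TYK2, JAK2 and IFNB1 are named besides. The values of other uncalled genes are not given, also where they were the highest or lowest of a list. Values of other members, and of IKBKE, were added after they were seen. Alternatives were other model terms, tests and cutoffs, a filter on dim genes, median scaling, a loess trend (span 0.4), the brightest probe set, the genotype field and leaving out each array. Sequences are from RefSeq (GRCh38.p14), whose gene order was used for neighbours.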

Additional observations from a re-analysis of the deposited data

Results flagged for a closer look

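SAMD9 and IFI16 differed by at least 2-fold in both pairs, in opposite directions by title. The log2 difference (titled miR-410 minus titled miR-CON) of SAMD9 was -1.81 in the pair titled PC3 and 1.12 in the pair titled C42B. For IFI16 these values were -1.20 and 1.16. The difference between the pairs was not tested, since each construct has 1 array per line, and both directions would be upward if the genotype field of the arrays titled PC3 were used. The directions would stay opposite if both pairs were turned, as the signs of the paper's largest changes run.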

How the results depend on the processing

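The labels give no replicate numbers to pair arrays by. With the construct as a second term, 20 members were called higher and 3 lower by title, and 19 and 3 by the genotype field, with 4 and 3 of the 25 calls lost. All 25 called members kept the direction of their line difference in the settings they were tested in (10 or 11, since 5 were not tested with dim genes left out), and 12 stayed called wherever they were tested with limma. Ordinary ANOVA called 0 members higher and 0 lower after adjustment (1 gene of all). At an adjusted p of 0.01, 10 were called higher and 1 lower. Besides the ANOVA, the share of all genes called was counted only for the main limma fit at 0.05. The member counts of the other settings thus have no such share beside them. Without 1 array, 13 to 19 were called higher and 1 to 4 lower, and the median line difference ran from 0.52 to 0.93, the highest without the array titled PC3 miR-CON. Without dim genes it was 1.04. The cause was not tested.

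In the pair titled PC3, 1 member was at least 2-fold lower without dim genes. At 1.5-fold 2 were higher and 11 lower, with the share of all genes at that cutoff not counted. By the genotype field 4 were higher and 0 lower, with a median of 0.26 and with BST2 at 1.85, SAMD9 at 1.81, PSMB9 at 1.60 and IFI16 at 1.20. In the pair titled C42B, the median was 0.15 without dim genes and -0.004 with a loess trend subtracted, under which 1 member was at least 2-fold higher. At 1.5-fold 9 were higher and 4 lower, and at 3-fold 0 were higher, again without a counted share of all genes.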
